A study of Caenorhabditis elegans with 14 samples.

Results

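The miR-58 family of C. elegans consists of miR-58a, miR-58b, miR-80, miR-81 and miR-82, relatives of the Drosophila miRNA bantam. Members were chosen by name, taking both mature arms of the 5 hairpins, which gave 10 of the 450 mature miRNAs among 23869 small RNA features. Small RNAs were sequenced from whole gravid adult hermaphrodites fed E. coli OP50, in wild-type (N2) and in pash-1(ram33) mutants (strain TAM93). The ram33 allele carries a missense change in the WW domain of PASH-1, the partner of the nuclease Drosha in the Microprocessor, and came from a forward screen that used a sensor built on the mir-58 hairpin. From the synchronized L1 stage on, animals spent 72 h at 20 °C (3 libraries per strain) or 54 h at 25 °C (4 libraries per strain). The study outcrossed the mutant strain, which is 1 isolate, and small RNA reads cannot check its pash-1 genotype. The comparison asks how far each member of an abundant miRNA family depended on an intact PASH-1.

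A primary miRNA is cut by the Microprocessor into a hairpin, the hairpin is cut by Dicer into a duplex, and as a rule 1 strand of the duplex stays in an Argonaute protein while the other is discarded. For miR-58a, miR-80, miR-81 and miR-82 the retained strand comes from the 3p arm. The 3p arms of the family share a seed, the stretch near the 5′ end that pairs with target mRNAs. Drosophila bantam promotes tissue growth and limits cell death. C. elegans that lack several members of the family together have a smaller body and defects in movement and egg laying, and miR-80 has been linked to the response to dietary restriction.

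The hairpins lie at 5 places in the genome (Ensembl annotation of WBcel235). The mir-58.1 hairpin, the source of miR-58a, is on chromosome IV from 3233254 to 3233350 on the plus strand, inside an intron of Y67D8A.2, and overlaps an exon of the non-coding RNA Y67D8A.6 on the same strand. The mir-58.2 hairpin, the source of miR-58b, is on chromosome IV from 6660461 to 6660519 on the minus strand. It overlaps no annotated gene and lies 24 bases from C01B10.11. The mir-80 hairpin is on chromosome III from 8865270 to 8865367 on the minus strand, opposite an exon of the non-coding RNA K01F9.6. The mir-81 and mir-82 hairpins both sit inside introns of gid-2 on chromosome X, 4078 bases apart and on opposite strands. mir-81 runs from 2431072 to 2431179 on the plus strand, against the direction of gid-2, and mir-82 from 2435258 to 2435354 on the minus strand, in the direction of gid-2. The mature 3p arms of miR-81 and miR-82 are nearly identical in sequence, and how reads that match both were divided is not given in the sources used here, so the split between these arms is uncertain to that extent.

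Libraries held about 16400000 to 23400000 reads, estimated from the smallest step between values, and 1 read was worth 0.0426 to 0.061 rpm (reads scaled to the size of the library). The listed features summed to 812424 to 879385 rpm in mutants and 898606 to 907393 rpm in wild-type. For the tests, rpm was rescaled within each temperature by median-of-ratios size factors, and levels given below are rescaled rpm unless deposited rpm is named. With deposited rpm the median log2 fold change of all features was 0.35 at 20 °C and 0.54 at 25 °C, against -0.01 and -0.04 after rescaling, so the choice shifts every arm alike. Strains were compared with limma on log2(rescaled rpm + 0.1), which understates changes of features near 0.1 rpm, with Benjamini-Hochberg adjustment across every feature that averaged 1 rpm or more. An arm was called lower or higher at an adjusted p under 0.05. The study describes the libraries as biological replicates, and p-values measure the spread between these libraries only.

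Markers of other tissues were also compared between the strains, in part as deposited rpm. By rescaled rpm, the embryonic miRNAs miR-35-3p to miR-41-3p were lower in mutants at both temperatures in 7 of 7 cases (limma, Benjamini-Hochberg). Lower calls made up 52.8% of mature miRNAs at 20 °C and 71.6% at 25 °C, and 3.84% and 39.3% of all features. In deposited rpm at 20 °C, mean levels in wild-type and mutants were nearly equal for miR-38-3p (249.9 and 249.2) and miR-40-3p (4577 and 4582). Those of miR-35-3p, miR-36-3p, miR-37-3p, miR-39-3p and miR-41-3p were lower in mutants there too. Their summed level was 168081 to 187007 deposited rpm in wild-type against 90015 to 102026 in mutants at 20 °C, and 191067 to 214582 against 58151 to 69631 at 25 °C. Total piRNAs, which come from the germline, were 71730 to 81153 deposited rpm in wild-type against 87831 to 100531 in mutants at 20 °C, and 39460 to 44540 against 73966 to 85750 at 25 °C. By rescaled rpm, the muscle miRNA miR-1-3p had a log2 fold change of -0.31 ± 0.10 (SE) at 20 °C, with an adjusted p of 0.0603 by limma. It fell by 0.50 ± 0.08 (SE) at 25 °C, with an adjusted p of 1.50e-06 by limma. Its mean deposited rpm at 25 °C was 194597 in wild-type and 208268 in mutants, the other direction. None of these markers was at 0, and their part in the family's values was not tested. In whole animals, fewer cells of a type and less RNA per cell cannot be told apart.

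In wild-type animals the family was among the most abundant miRNAs. It held 12.3% ± 1.15 (SD, n = 3) of mature miRNA reads at 20 °C and 12.5% ± 0.127 (SD, n = 4) at 25 °C. Ranked by mean deposited rpm among 450 mature miRNAs, miR-58a-3p was 5th, miR-80-3p 6th, miR-82-3p 13th and miR-81-3p 32nd at either temperature. The order of the 4 major arms was the same in all 14 libraries, and neighbours in that order were separated by more than their spread within each strain. Levels of different miRNAs also carry the ligation and amplification preferences of the library kit, which were not measured.

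The 5p arms of miR-58a, miR-80, miR-81 and miR-82, the discarded strands, were far scarcer. In wild-type at 20 °C, mean levels were 299.8 rpm for miR-80-5p, 77.5 rpm for miR-58a-5p, 71.7 rpm for miR-82-5p and 40.4 rpm for miR-81-5p. miR-58a-5p and miR-82-5p did not differ beyond their spread there (SD 5.20 and 11.4, n = 3). miR-58b stood apart in both respects: it was the rarest member, and its 5p arm was the more abundant one. Wild-type animals had 9.52 to 12.4 deposited rpm of miR-58b-5p at 20 °C and 1.49 to 2.17 at 25 °C, in tables normalized separately, so this difference between temperatures was not tested.

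**Figure D1:**
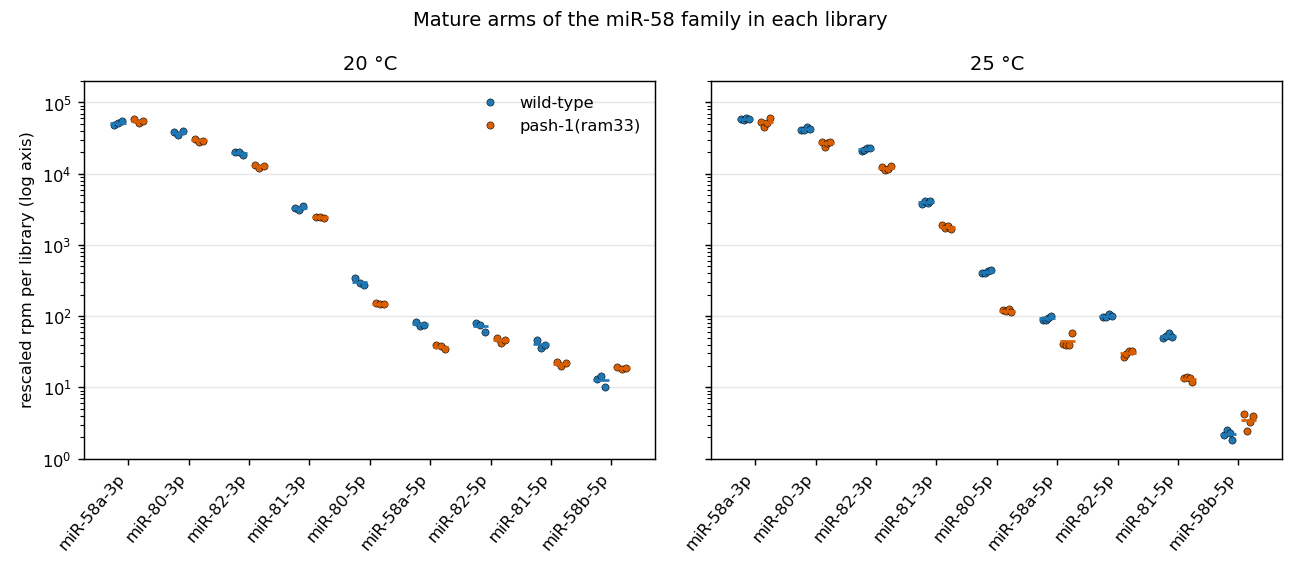
Rescaled rpm on a log axis for 9 mature arms in each library, with wild-type in blue and pash-1(ram33) in orange at 20 °C (3 libraries per strain) and 25 °C (4 per strain), and bars at group means. The 3p arm of miR-58a lies between 45568 and 61394 rpm in both strains, whereas for the 5p arms of miR-58a, miR-80, miR-81 and miR-82 all mutant points sit below all wild-type points, and miR-58b-5p sits higher at 20 °C.

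At 20 °C, miR-58a-3p did not fall with its relatives. Of 9 arms tested, 7 were lower in pash-1(ram33) mutants, 1 was higher and 1 passed in neither direction. Lower calls made up 3.84% of all 7034 features and 52.8% of 233 mature miRNAs, and higher calls 2.06% and 10.7%. The median log2 fold change was -0.62 over the 9 arms, -0.43 over mature miRNAs and -0.01 over all features.

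The level of miR-58a-3p, the most abundant member, was 48793, 50900 and 54228 rpm in wild-type and 59359, 52181 and 54979 rpm in mutants. The strains overlapped. The log2 fold change was 0.11 ± 0.08 (SE), with an adjusted p of 0.507 by limma with Benjamini-Hochberg adjustment. miR-80-3p was at 37938, 35383 and 39385 rpm in wild-type and 30756, 28300 and 28759 rpm in mutants, with every mutant library below every wild-type library. It fell by 0.36 ± 0.08 (SE), a 1.28-fold decrease, with an adjusted p of 0.00355.

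miR-82-3p showed the largest decrease among the 3p arms at this temperature. Its level was 20431, 19978 and 18534 rpm in wild-type and 13328, 12194 and 12811 rpm in mutants, without overlap. It fell by 0.62 ± 0.08 (SE), a 1.54-fold decrease, with an adjusted p of 8.61e-07. The hairpin of miR-81-3p also lies within gid-2, but on the opposite strand. miR-81-3p was at 3264, 3142 and 3482 rpm in wild-type and 2457, 2485 and 2392 rpm in mutants, again without overlap. It fell by 0.43 ± 0.09 (SE), with an adjusted p of 0.000841 (limma, Benjamini-Hochberg). The 20 °C calls for miR-80-3p, miR-81-3p, miR-82-3p, miR-82-5p and miR-58b-5p ended by eBayes with neither trend nor robust option, and mature miRNA factors ended that for miR-82-3p (-0.14).

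The 5p arms of miR-58a, miR-80, miR-81 and miR-82 were all lower at 20 °C, and none overlapped between strains. miR-58a-5p was at 83.2, 73.0 and 76.2 rpm in wild-type and 39.3, 38.4 and 34.5 rpm in mutants, so the discarded strand of miR-58a fell about 2.07-fold (log2 fold change -1.05 ± 0.11, SE, adjusted p = 9.38e-09) although the retained strand did not. miR-80-5p was at 339.2, 289.0 and 271.1 rpm in wild-type and 154.9, 150.4 and 146.1 rpm in mutants (log2 fold change -0.99, adjusted p = 1.91e-09, limma). The log2 fold changes of miR-81-5p and miR-82-5p were -0.89 and -0.63, with adjusted p-values of 3.91e-06 and 0.000398 by limma.

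miR-58b-5p was the exception. It was at 13.02, 14.3 and 10.2 rpm in wild-type and 19.6, 18.0 and 18.4 rpm in mutants, higher in 3 of 3 mutant libraries than in any wild-type library. The log2 fold change was 0.59 ± 0.15 (SE), with an adjusted p of 0.0114 by limma. Without mutant replicate 1 or without mutant replicate 3 it was 0.55 and 0.59 and no longer passed the threshold. miR-58b-3p stayed below the filter of 1 rpm and was not tested. Its deposited rpm was 0, 0.18 and 0.10 in wild-type and 0.59, 0.21 and 0.42 in mutants, where 3 reads are worth 0.135 to 0.183 rpm in wild-type and 0.136 to 0.159 in mutants.

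At 25 °C, of the 9 arms tested, 8 were lower and 1 was higher, where 39.3% of all 7070 features and 71.6% of 232 mature miRNAs were called lower and 33.6% and 18.1% higher. The median log2 fold change was -1.09 over the arms, -0.90 over mature miRNAs and -0.04 over all features.

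miR-81-3p had the largest decrease among the 3p arms at 25 °C. It was at 3792, 4094, 3919 and 4149 rpm in wild-type and 1929, 1755, 1819 and 1692 rpm in mutants, without overlap. It fell by 1.15 ± 0.06 (SE), a 2.22-fold decrease, with an adjusted p of 1.62e-15 by limma. miR-82-3p was at 21036, 21269, 22850 and 22789 rpm in wild-type and 12446, 11417, 11649 and 12838 rpm in mutants, and fell by 0.86 ± 0.06 (SE), with an adjusted p of 9.52e-13. miR-80-3p was at 40736, 40889, 45971 and 42344 rpm in wild-type and 27990, 24057, 26870 and 28094 rpm in mutants, and fell by 0.67 ± 0.07 (SE), with an adjusted p of 5.49e-10. Neither of these arms overlapped between strains.

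miR-58a-3p was at 58959, 56383, 61394 and 58491 rpm in wild-type against 52518, 45568, 51473 and 60434 rpm in mutants at 25 °C. The strains overlapped, because mutant replicate 4 was above 3 wild-type libraries. The log2 fold change was -0.17 ± 0.07 (SE), with an adjusted p of 0.0302 by limma, and leaving out wild-type replicate 1 or 3, or mutant replicate 1, 2 or 3, ended the call, with values of -0.18, -0.17, -0.17, -0.10 and -0.16. The call also ended with no filter on low values, with a filter of 5 rpm and by eBayes with neither trend nor robust option.

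Among the 5p arms at 25 °C, miR-81-5p fell by 1.98 ± 0.09 (SE), from 48.7, 52.6, 58.4 and 50.9 rpm in wild-type to 13.6, 14.2, 13.5 and 11.8 rpm in mutants, with an adjusted p of 1.59e-17 by limma. The log2 fold changes of miR-80-5p and miR-82-5p were -1.81 and -1.73, with adjusted p-values of 2.49e-20 and 1.89e-17 (limma, Benjamini-Hochberg). These were 3.33- to 3.95-fold decreases. miR-58a-5p fell by 1.09 ± 0.10 (SE), with an adjusted p of 1.42e-10. Its mutant libraries were at 40.4, 39.7, 39.5 and 58.6 rpm and its wild-type libraries at 88.1, 89.3, 94.8 and 102.1 rpm. Leaving out mutant replicate 4, the highest of the mutants, gave a log2 fold change of -1.22.

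miR-58b-5p was again higher, at 2.17, 2.54, 2.26 and 1.84 rpm in wild-type and 4.18, 2.47, 3.26 and 3.99 rpm in mutants. Mutant replicate 2 was below 1 wild-type library, so the strains overlapped. The log2 fold change was 0.62 ± 0.20 (SE), with an adjusted p of 0.00819 by limma, at a level of a few rpm. miR-58b-3p had deposited rpm of 0.05, 0.14, 0 and 0 in wild-type and 0.28, 0, 0.11 and 0.32 in mutants, and was not tested.

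The strain effect was compared between temperatures with an interaction term over all 14 libraries. It was more negative at 25 °C for 6 of 9 arms and more positive for 0, where 22.5% of 6396 features and 48.5% of 227 mature miRNAs were more negative and 15.5% and 11.9% more positive. The largest differences were in the 5p arms, -1.10 ± 0.15 (SE) for miR-82-5p, -1.09 ± 0.15 for miR-81-5p and -0.82 ± 0.12 for miR-80-5p on the log2 scale, with adjusted p-values of 4.20e-07, 1.48e-06 and 1.32e-06 by limma. miR-81-3p followed with -0.72 ± 0.10 (adjusted p = 1.82e-06), miR-80-3p with -0.31 ± 0.10 (adjusted p = 0.0174) and miR-58a-3p with -0.28 ± 0.11 (adjusted p = 0.0377).

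The other 3 arms did not pass. The differences were -0.24 ± 0.10 (SE, adjusted p = 0.0532) for miR-82-3p, -0.04 ± 0.15 (adjusted p = 0.860) for miR-58a-5p and 0.03 ± 0.25 (adjusted p = 0.932) for miR-58b-5p by limma. The miR-82-3p difference passed without wild-type 20 °C replicate 1 (-0.27), mutant 20 °C replicate 2 (-0.28), wild-type 25 °C replicate 2 (-0.28) or mutant 25 °C replicate 4 (-0.27). It also passed with no filter on low values (-0.24) and with the replicate block (-0.24). The same held with the piRNA total (-0.68) and with size factors from classes other than miRNAs (-0.27). Temperature went with growth time in this design and the 2 cannot be told apart. By the study's account mutants also had developmental defects at 25 °C, and their part in these differences was not tested. The count depended on the scaling. With the piRNA total 8 arms were more negative, among them miR-58a-5p (-0.47). With deposited rpm and with mature miRNA factors 4 arms were more negative in place of 6, and the calls for miR-80-3p (-0.08 and -0.01) and miR-58a-3p (-0.06 and 0.02) ended, as they did by eBayes with neither trend nor robust option. With size factors from the CSR-class 22G siRNAs, a class made against germline mRNAs, 0 arms were more negative and 5 more positive, and the median difference of all features moved to 0.62. Leaving out wild-type 20 °C replicate 2 or mutant 20 °C replicate 1 ended the call for miR-80-3p, with -0.27 in each case. The miR-58a-3p call ended with no filter on low values and on leaving out any 1 of 9 of the 14 libraries, with differences of -0.29 to -0.21.

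**Figure D2:**
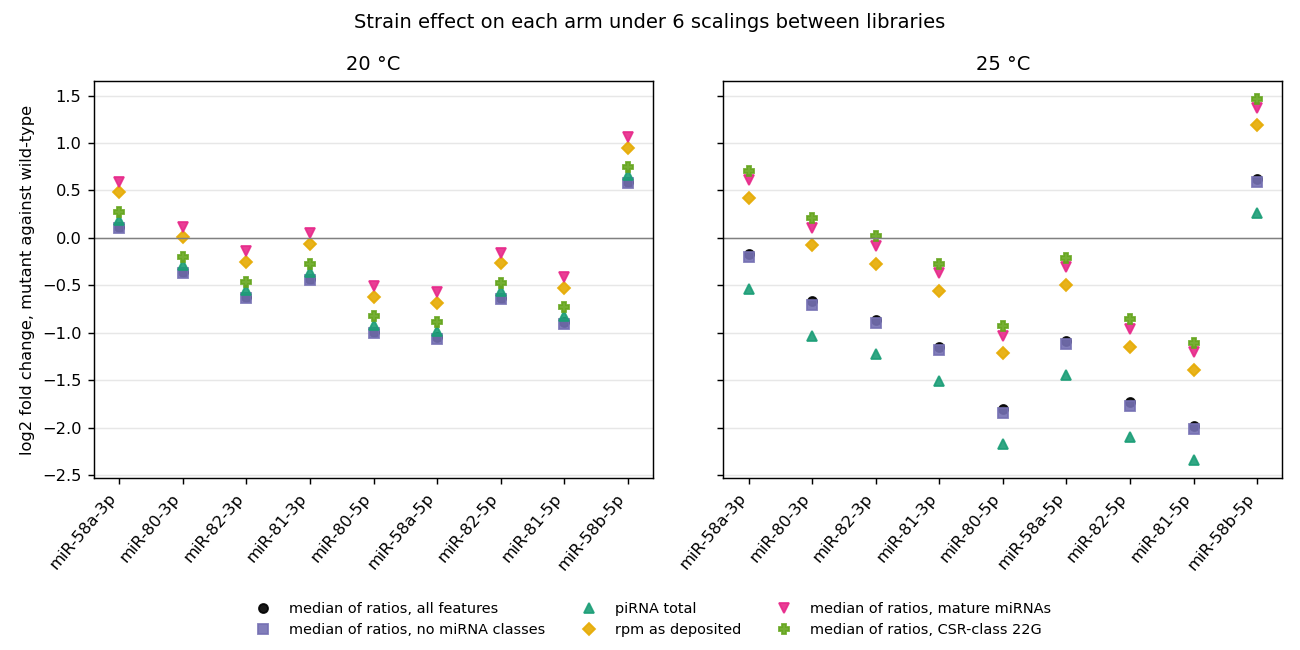
Log2 fold change of each arm, mutant against wild-type, under 6 ways to scale libraries, at 20 °C and 25 °C. Within a temperature each scaling moves all arms together, so the order of the arms holds while the zero line crosses the 3p arms, from miR-58a-3p at -0.53 to 0.71 at 25 °C.

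Directions of the 3p arms depended on the scaling between libraries. With deposited rpm, miR-58a-3p was higher in mutants at both temperatures, by 0.48 and 0.42 on the log2 scale, and passed the threshold, and with size factors from mature miRNAs it was higher by 0.59 and 0.61. miR-80-3p was at 0.01 with deposited rpm and 0.12 with mature miRNA factors at 20 °C, and at -0.08 and 0.11 at 25 °C. At 25 °C its lower call ended with deposited rpm. It was instead called higher there with mature miRNA factors (adjusted p = 0.0372, limma) and CSR-class factors (0.21, adjusted p = 0.0425, limma). The 20 °C calls for miR-81-3p and miR-82-5p ended with deposited rpm (-0.06 and -0.27), mature miRNA factors (0.05 and -0.16) and CSR-class factors (-0.27 and -0.48), and that for miR-80-3p ended also with the piRNA total (-0.29) and CSR-class factors (-0.20). At 25 °C the calls ended for miR-82-3p with mature miRNA factors (-0.09) and CSR-class factors (0.02), for miR-58a-5p with CSR-class factors (-0.21) and for miR-58b-5p with the piRNA total (0.27). At 20 °C, miR-58a-5p, miR-80-5p and miR-81-5p were lower under all 6 scalings and miR-58b-5p was higher under all 6. At 25 °C, miR-80-5p, miR-81-5p, miR-82-5p and miR-81-3p were lower under all 6, with miR-81-5p ranging from -2.34 to -1.11.

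The scaling cancels in a ratio of arms from the same library, so the 3p arms were also compared with each other. At 20 °C, 4 of the 6 ratios between 3p arms did not overlap between strains, where 66.8% of the 946 ratios among 44 mature miRNAs with a mean of at least 1000 rpm did not overlap. At 25 °C, 6 of 6 did not overlap, against 85.9% of 946. The family's counts were thus near those of abundant miRNAs in general. With 3 libraries against 3 the exact permutation test cannot go below 0.1, and with 4 against 4 it cannot go below 0.0286.

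Within the family, the ratios moved towards miR-58a-3p. Ranked from the most negative log2 fold change, miR-58a-3p was 185th of 233 mature miRNAs at 20 °C and 170th of 232 at 25 °C. Other miRNAs outside the family thus also gained relative to the rest. The ratio of miR-58a-3p to miR-82-3p was 2.39, 2.55 and 2.93 in wild-type against 4.45, 4.28 and 4.29 in mutants at 20 °C. It rose 1.66-fold (two-sided exact permutation p = 0.1, 0.15 after Benjamini-Hochberg adjustment over 6 pairs). At 25 °C the same ratio was 2.80, 2.65, 2.69 and 2.57 in wild-type and 4.22, 3.99, 4.42 and 4.71 in mutants, 1.62-fold higher (exact permutation p = 0.0286, and 0.0286 after adjustment over 6 pairs).

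The ratio of miR-58a-3p to miR-80-3p had a geometric mean of 1.37 in wild-type against 1.89 in mutants at 20 °C, and of 1.39 and 1.96 at 25 °C. The ratio to miR-81-3p went from 15.6 to 22.7 at 20 °C and from 14.7 to 29.1 at 25 °C. All mutant libraries were above all wild-type libraries in both ratios at both temperatures. miR-58a-3p made up 45.7% ± 1.49 (SD, n = 3) of family reads in wild-type against 55.3% ± 0.614 in mutants at 20 °C, and 46.0% ± 0.760 (SD, n = 4) and 56.1% ± 1.64 at 25 °C. By mean level it was 5th among mature miRNAs in wild-type and 2nd in mutants, where the embryonic miRNAs miR-35-3p and miR-37-3p were lower.

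miR-81 and miR-82, which lie in the same host gene, did not keep a fixed ratio. The ratio of miR-81-3p to miR-82-3p was 0.160, 0.157 and 0.188 in wild-type against 0.184, 0.204 and 0.187 in mutants at 20 °C, with overlap (exact permutation p = 0.3, 0.3 adjusted over 6 pairs). Without wild-type replicate 3 the strains no longer overlapped, and the log2 difference went from 0.19 to 0.27. At 25 °C it was 0.180, 0.192, 0.171 and 0.182 in wild-type and 0.155, 0.154, 0.156 and 0.132 in mutants, lower in every mutant library (exact permutation p = 0.0286, and 0.0286 adjusted over 6 pairs). The ratio of miR-80-3p to miR-81-3p overlapped at 20 °C, with geometric means of 11.4 and 11.97 (exact permutation p = 0.2, 0.24 adjusted). Without wild-type replicate 1 or mutant replicate 2 it no longer overlapped, with log2 differences of 0.08 and 0.11 against 0.07. It was 10.6 in wild-type against 14.9 in mutants at 25 °C.

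**Figure D3:**
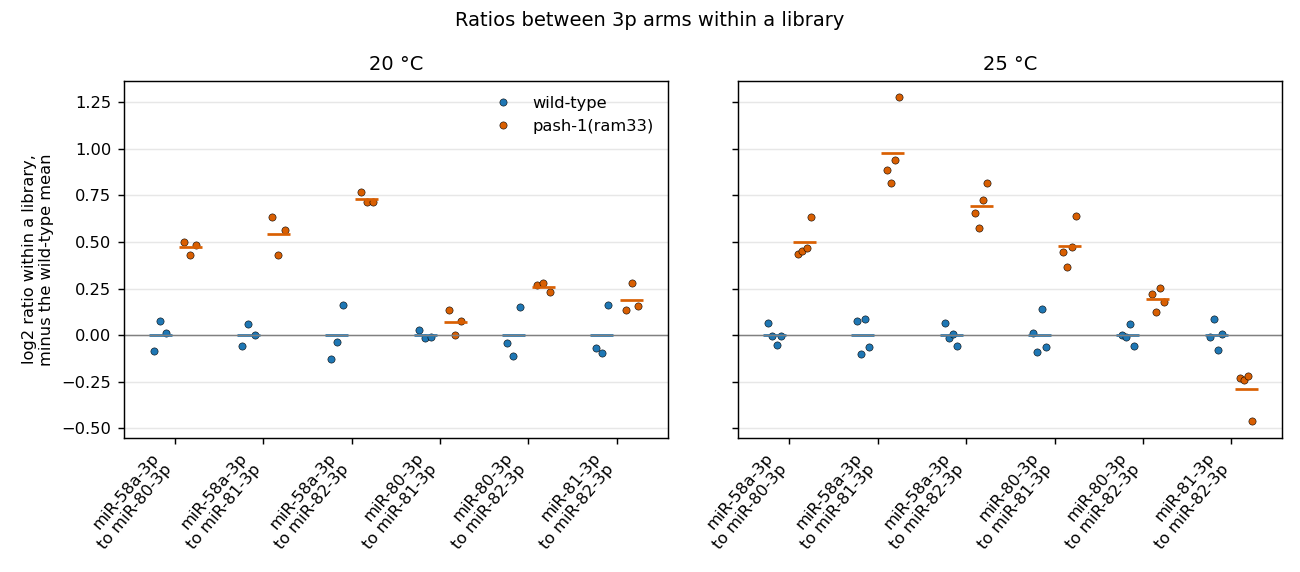
Log2 ratio of each pair of 3p arms within a library, minus the wild-type mean of that ratio, with wild-type in blue and pash-1(ram33) in orange and bars at group means (3 libraries per strain at 20 °C, 4 at 25 °C). The 3 ratios with miR-58a-3p on top are higher in every mutant library, and the ratio of miR-81-3p to miR-82-3p overlaps at 20 °C and is lower in every mutant library at 25 °C.

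The discarded 5p arm fell further than the retained 3p arm in most members. At 20 °C the ratio of 5p to 3p was lower in mutants for 3 of 4 hairpins, where 27.5% of 80 hairpins were lower and 7.5% higher and the median log2 change was -0.05. At 25 °C it was lower for 4 of 4, where 39.0% of 82 hairpins were lower and 20.7% higher and the median was -0.21. This ratio was not tested for miR-58b, whose 3p arm was below the filter.

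The change was largest for miR-58a at 20 °C. There were 1.70, 1.43 and 1.41 reads of miR-58a-5p per 1000 of miR-58a-3p in wild-type and 0.662, 0.736 and 0.627 in mutants, without overlap. The ratio fell by 1.16 ± 0.13 (SE) on the log2 scale, with an adjusted p of 0.000266 by limma over 80 hairpins, the 8th lowest value among them. At 25 °C it fell by 0.92 ± 0.10 (SE), from 1.59 ± 0.109 (SD, n = 4) to 0.845 ± 0.0959 per 1000, with an adjusted p of 7.75e-05.

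miR-80 went from 8.94, 8.17 and 6.88 reads of the 5p arm per 1000 of the 3p arm in wild-type to 5.04, 5.31 and 5.08 in mutants at 20 °C, and from 9.79, 9.78, 9.51 and 10.4 to 4.31, 4.99, 4.62 and 4.03 at 25 °C. The log2 changes were -0.63 and -1.14, with adjusted p-values of 0.00435 and 7.39e-06 by limma. For miR-81 they were -0.46 (adjusted p = 0.0297) and -0.83 (adjusted p = 4.39e-05). The miR-81 change at 20 °C no longer passed without wild-type replicate 1 (-0.35) or 2 (-0.52) or without mutant replicate 1 (-0.50), 2 (-0.40) or 3 (-0.49).

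miR-82 differed from the others at 20 °C. It had 3.98, 3.74 and 3.19 reads of the 5p arm per 1000 of the 3p arm in wild-type and 3.74, 3.42 and 3.60 in mutants, with overlap, and a log2 change of -0.01 ± 0.12 (SE, adjusted p = 0.916, limma). At 25 °C it had 4.59, 4.63, 4.62 and 4.46 in wild-type and 2.13, 2.56, 2.80 and 2.55 in mutants. That ratio fell by 0.87 ± 0.09 (SE), with an adjusted p of 5.80e-05. The difference between temperatures, tested as an interaction in a fit added after the data were seen, was -0.86 ± 0.14 (SE) for miR-82 (adjusted p = 0.000539) and -0.51 ± 0.14 for miR-80 (adjusted p = 0.0122). It did not pass for miR-81 (-0.37, adjusted p = 0.0781) or miR-58a (0.24, adjusted p = 0.248). Among 80 hairpins, 16.2% were more negative at 25 °C and 11.2% more positive.

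**Figure D4:**
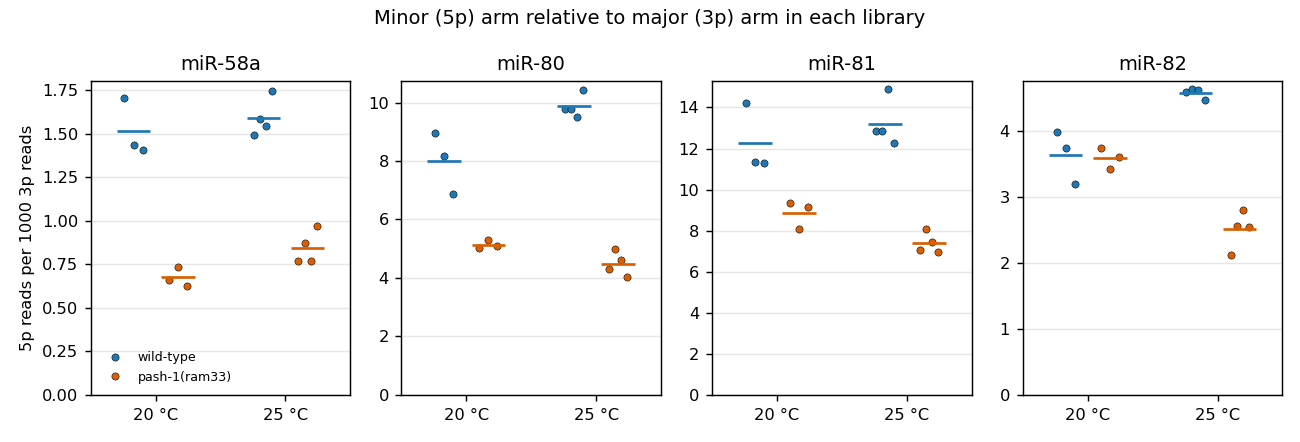
Reads of the 5p arm per 1000 reads of the 3p arm in each library for miR-58a, miR-80, miR-81 and miR-82, with wild-type in blue and pash-1(ram33) in orange and bars at group means (3 libraries per strain at 20 °C, 4 at 25 °C; each panel has its own axis from 0). Mutant libraries lie below wild-type libraries in every panel except for miR-82 at 20 °C, where the strains overlap.

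Iso-miRs in these tables are reads whose 5′ end is shifted by a few bases from the annotated end of an arm. They were rare for the 3p arms, for example 0.468 ± 0.0141 (SD, n = 3) per 100 mature reads of miR-80-3p in wild-type at 20 °C. miR-58a-5p was unlike the rest, with 41.5, 43.2 and 40.4 iso-miR reads per 100 mature reads in wild-type against 24.6, 27.4 and 29.4 in mutants at 20 °C, without overlap. At 25 °C it had 33.3, 30.2, 35.5 and 31.5 in wild-type and 23.3, 17.8, 19.6 and 17.4 in mutants.

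The iso-miR reads of miR-58a-5p thus fell further than its mature reads. The ratio of iso-miR to mature reads fell by 0.62 ± 0.10 (SE) on the log2 scale at 20 °C, with an adjusted p of 0.0341 by limma over 108 arms, and by 0.74 ± 0.11 at 25 °C, with an adjusted p of 0.00330 over 105 arms. At 20 °C 2.78% of the 108 arms were lower and 0.926% higher, and the call ended on leaving out any 1 library, with values of -0.68 to -0.55, and with the replicate number as a block. At 25 °C 5.71% were lower and 18.1% higher. The iso-miR to mature ratio of miR-80-5p was higher in mutants at 25 °C (0.94 ± 0.17, SE, adjusted p = 0.00766), at an iso-miR level of 0.55 to 2.00 rpm. The call ended with the replicate block. No other ratio tested in the family passed at either temperature.

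Reads from the hairpins that were counted neither as mature nor as iso-miR reads were scarce. Of 3 hairpins tested, 0 passed at 20 °C (limma, unadjusted p-values of 0.0723, 0.153 and 0.279), where 23.5% of 34 pre-miRNA features were lower and 14.7% higher. The mir-58.1 hairpin was at 11.2, 8.93 and 8.33 rpm in wild-type and 9.16, 6.64 and 6.85 rpm in mutants, with overlap, and a log2 fold change of -0.33 ± 0.18 (SE, adjusted p = 0.331).

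At 25 °C 2 of 3 hairpins were lower, where 60.0% of 35 pre-miRNA features were lower and 14.3% higher. The mir-58.1 hairpin was at 14.9, 16.2, 16.4 and 18.7 rpm in wild-type and 7.65, 6.64, 8.48 and 7.75 rpm in mutants. It fell by 1.11 ± 0.12 (SE), with an adjusted p of 2.79e-09 by limma. The mir-80 hairpin was at 4.64, 4.28, 5.25 and 5.14 rpm in wild-type and 2.99, 2.76, 2.47 and 2.68 rpm in mutants, and fell by 0.80 ± 0.17 (SE), with an adjusted p of 0.000136. The mir-80 call ended with deposited rpm (-0.23), mature miRNA factors (-0.05) and CSR-class factors (0.05), and the mir-58.1 call ended with CSR-class factors (-0.24). The mir-82 hairpin, near 1 rpm, had a log2 fold change of -0.62 (adjusted p = 0.0861). The mir-81 and mir-58.2 hairpins were at 0.41 deposited rpm or less in every library and were not tested.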

How the data were processed

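Small RNAs were measured in wild-type and pash-1(ram33) adults, in 3 libraries of each strain at 20 °C and 4 of each at 25 °C. The authors made the deposited rpm values by trimming and filtering reads with fastp, mapping with bowtie to the WS279 genome, assigning them to features with tinyRNA and dividing by library size. Their own test was a Wald test on counts. Here only rpm was used, so the strains were compared with limma 3.58.1 in R 4.3.3 (lmFit, eBayes with trend and robust options) on log2(rescaled rpm + 0.1), 1 temperature at a time, with interaction terms over 14 libraries. Only 90.3% to 92.1% of low values were whole reads within a tolerance of 0.006, too few for a count test. Ratios between 3p arms were tested by exact two-sided permutation in Python 3.11.15. At 20 °C the feature classes stood 1 line off their features and were moved back, after which all 23869 classes matched those at 25 °C. Replicates differed by more than sampling noise (median chi-square 1.23 to 2.47, against 0.455), so none was merged. The fit was tested on simulated data. Members and lists were chosen with earlier results of these data known. The named features were all arms, iso-miRs and hairpins of the family, miR-58c as a value only, and the 3 mature miRNAs most like each 3p arm. miRNAs that share the seed were not analysed here, and no sequence is printed, because no sequence table was used. Alternatives were a pseudocount of 1 or 0.01 rpm, a filter of 5 rpm or none, 5 other scalings, eBayes with neither trend nor robust option, a replicate block and each library left out.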

Additional observations from a re-analysis of the deposited data

Results flagged for a closer look

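Of 40 groups of 4 libraries looked at, 3 held a library that lay far from the other 3. Chance alone would give about 1 such group in 20 if the groups were independent. The count cannot be set against that rate, because the groups share libraries and arms. In each of the 3 it was replicate 4 of the pash-1(ram33) group at 25 °C, so they are not independent. That library was high for miR-58a-5p, at 58.6 rescaled rpm, and for the ratio of miR-58a-3p to miR-80-3p, at 2.15. It was low for the ratio of miR-81-3p to miR-82-3p, at 0.132.

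The strain effect differed between 25 °C and 20 °C for 6 arms by the interaction term, all more negative at 25 °C. Of all 6396 features 22.5% were more negative and 15.5% more positive, and of 227 mature miRNAs 48.5% and 11.9%. The differences in log2 fold change were -0.28 for miR-58a-3p, -0.82 for miR-80-5p, -0.31 for miR-80-3p, -1.09 for miR-81-5p, -0.72 for miR-81-3p and -1.10 for miR-82-5p. With CSR-class factors 0 arms were more negative and 5 more positive. The miR-58a-3p call ended on leaving out any 1 of 9 of the 14 libraries. The ratio of 5p to 3p differed by the interaction term for miR-80, by -0.51, and for miR-82, by -0.86, where 16.2% of 80 hairpins were more negative. Temperature, growth time and the table a library came from go together in these comparisons and cannot be told apart.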

How the results depend on the processing

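The scaling between libraries mattered most. At 20 °C, where 7 arms were lower and 1 higher, 4 were lower with deposited rpm, 3 with size factors from mature miRNAs, 4 with CSR-class 22G siRNAs and 3 by eBayes with neither trend nor robust option, and 2, 2, 1 and 0 were higher. At 25 °C, where 8 were lower and 1 higher, 5 were lower with mature miRNA factors and 4 with CSR-class factors, and 2 were higher with deposited rpm, 3 with mature miRNA factors, 3 with CSR-class factors, 0 with the piRNA total and 0 with a filter of 5 rpm, which removes miR-58b-5p. For the difference between temperatures, CSR-class factors gave 0 more negative and 5 more positive arms, and the piRNA total gave 8 more negative arms. Each library left out gave 7 lower and 0 to 1 higher arms at 20 °C, 7 to 8 lower and 1 higher at 25 °C, and 4 to 7 more negative arms between temperatures. The iso-miR to mature ratio had 0 lower calls at 20 °C without any 1 library (0 to 0, against 1) and 0 with the replicate block. At 25 °C it had 1 to 2 lower calls without a library, and the 1 higher call went to 0 with the 5 rpm filter and with the block.

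Directions reversed as follows (log2). With deposited rpm, miR-80-3p and the mir-58.1 hairpin were at 0.0059 and 0.032 at 20 °C, and miR-58a-3p at 0.42 at 25 °C. With mature miRNA factors, miR-80-3p, miR-81-3p and the mir-58.1 hairpin were at 0.12, 0.047 and 0.14 at 20 °C, and miR-58a-3p, miR-80-3p and the mir-82 hairpin at 0.61, 0.11 and 0.080 at 25 °C. With CSR-class factors at 25 °C, miR-58a-3p, miR-80-3p, miR-82-3p and the mir-80 and mir-82 hairpins were at 0.71, 0.21, 0.015, 0.053 and 0.17. For the difference between temperatures, miR-58a-5p was at 0.19 with deposited rpm, 0.26 with mature miRNA factors and 0.68 with CSR-class factors. With the last 2 of these scalings miR-58a-3p was at 0.017 and 0.44 and miR-82-3p at 0.057 and 0.48, and miR-80-3p was at 0.41 with CSR-class factors. miR-58b-5p was at -0.083 with a pseudocount of 1 rpm and -0.39 with the piRNA total. With a library left out, values near 0 changed sign: the difference between temperatures ranged from -0.17 to 0.019 for miR-58a-5p and from -0.078 to 0.18 for miR-58b-5p, and the arm ratio of miR-82 at 20 °C ranged from -0.11 to 0.054. The cause was not tested.

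Same-numbered replicates did not deviate together (r of 0.102, -0.022 and -0.148 at 20 °C, and -0.026 to 0.029 at 25 °C). Pairs with different numbers ranged from -0.206 to 0.231 at 20 °C. With so few libraries this cannot tell whether same-numbered replicates shared a culture or a batch. The replicate block gave 7 lower and 1 higher arms at 20 °C, 8 and 1 at 25 °C and 7 more negative arms between temperatures. Values under about 0.18 rpm rest on 3 reads or fewer.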

Other observations

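The mature miRNAs outside the family whose pattern over 14 libraries was most like each 3p arm were found among 143 with a mean of at least 10 rpm, by the root mean square difference of log2 values centred on the wild-type mean within each temperature. They were chosen for this likeness, so the values are a description. For miR-58a-3p they were miR-66-5p (0.092), miR-250-3p (0.094) and miR-72-5p (0.122), against a median of 0.55 over the 143. For miR-80-3p they were miR-228-3p (0.115), miR-785-3p (0.115) and miR-55-3p (0.128). For miR-81-3p they were miR-229-5p (0.098), miR-86-5p (0.103) and miR-2-3p (0.106). For miR-82-3p they were miR-238-3p (0.121), miR-64-5p (0.126) and miR-60-3p (0.136). No 3p arm shared any of its 3 with another.

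miR-58c, which carries the family name but was outside the rule, was at 0.58 to 2.03 rescaled rpm in wild-type and 0.87 to 1.38 in mutants at 20 °C. At 25 °C it was at 0.45 to 1.10 and 0.63 to 1.25 rpm. The strains overlapped at both temperatures. Its log2 fold change at 20 °C was 0.13 ± 0.39 (SE, adjusted p = 0.889, limma), and it was below the filter at 25 °C.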
